A study of Mus musculus with 12 samples.

Results

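RNA sequencing was used to compare beige adipocytes that overexpressed the transcription factor ATF7 with control beige adipocytes, both made from the mouse cell line C3H10t1/2. The comparison took the 2 libraries titled ATF7-Overexpressing-beige and the 2 titled Control-beige, which are 4 of the 12 libraries of the series. All 4 came from cells differentiated with rosiglitazone, an agonist of the nuclear receptor PPARγ that drives fat cell differentiation and favours the beige state. The 2 groups differed in the labelled genotype alone (control or ATF7-Overexpressing). The vector, the promoter that drove ATF7, the number of clones and what the control cells carried are not stated in the labels or other sources used here. The other 8 libraries came from primary inguinal preadipocytes, and 4 of these (WT-beige and ATF7KO-beige, 2 each, with rosiglitazone) and the 2 WT-white libraries (without rosiglitazone) are used only for values set beside those of the cell line.

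C3H10t1/2 is a mesenchymal stem-like line that can form fat, bone and cartilage cells. Beige adipocytes arise in white fat depots and burn fuel as heat through UCP1, a protein of the inner mitochondrial membrane that lets protons return without making ATP. ATF7 belongs, with ATF2 and CREB5, to a family of leucine zipper factors that bind the cAMP response element in DNA. It is known to recruit histone H3K9 methyltransferases and to hold some of its target genes, immune genes among them, at a low level.

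Values were FPKM, fragment counts divided by transcript length and by library size, with 24888 entries (a gene symbol at a locus) per library. Entries with at least 1 FPKM in 2 or more of the 4 libraries were kept and small RNA genes were left out, which left 9944. The steps between low FPKM values put the depth of the other libraries at 0.953 (control 2), 0.747 (overexpressing 1) and 1.08 (overexpressing 2) times that of control 1. The share of FPKM in small RNA genes was 22% and 20.1% in the controls and 26.1% and 22.7% with overexpression, so overexpressing library 1 was the shallowest and held the most small RNA. Across entries, log2 values of replicates correlated at a Pearson's r of 0.9911 (control) and 0.9925 (overexpressing), against 0.9843 to 0.9874 between the groups, though genes do not vary independently. The labels do not state whether the replicates were separate cultures, and the p-values therefore measure only the spread between these libraries. A fold change is the difference of mean log2(FPKM + 1) between the groups, and it understates changes at low levels. It is written with its SE as in 2.07 ± 0.07 for n = 2 against 2. The SE and p-values are limma's moderated ones, which draw the spread of each entry toward a trend over all entries. The prior had 4.834 degrees of freedom, against 2 residual ones.

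Atf7 (chromosome 15, 102525946 to 102625464, mm10) checked the labels. It stood at 8.52 and 9.09 FPKM in the controls and at 41.2 and 39.1 FPKM in the overexpressing libraries. Both overexpressing libraries were far above both controls, and the log2 fold change was 2.07 (SE 0.07, limma, Benjamini-Hochberg (BH) adjusted p = 0.000141). The other 19 tested members of a list of ATF2, CREB, JUN and FOS relatives with their partners were not called. Atf2, the closest relative, stood at 12.6 and 12.8 FPKM in the controls against 10.3 and 10.7 (log2 fold change -0.25 ± 0.07, BH-adjusted p = 0.121).

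With an adjusted p under 0.05 taken as a call, 207 of 9944 entries were called, which is 2.08% of those tested. Of these, 62 rose with overexpression (0.623% of entries tested) and 145 fell (1.46%), so 70% of the calls were falls. Leaving out the 7 calls listed at 0 in a whole group, the median log2 fold change was -0.60 among the 140 falls and 0.55 among the 60 rises. The 2 groups did not overlap in any of the 207, and they did not overlap in 49.1% of all entries tested. The median log2 fold change of all entries was -0.020. The share of all entries on each side of 0 was not counted. Counts of list members above or below 0 therefore have only this median beside them. Counts of calls in a list are to be set beside the 0.623% and 1.46% given here. The share of rises among the calls was 30.0%, and it was 42.0% after quantile normalization and 44.1% after rescaling FPKM without small RNA genes. Calls were few when an overexpressing library was left out: 12 entries were called without library 1 and 19 without library 2, against 120 and 164 without control 1 and control 2. The calls of Atf7, Ucp1, Cidea, Cpt1b, Elovl3, Fabp3, Car3 and Pdzk1ip1 were kept in all 4 of these fits. The calls of Pdss1, Mrpl48 and Nme7 were kept too. These 3 were listed at 0 in both overexpressing libraries, so leaving 1 of those out tests their calls little. The other called genes described lost their call in at least 1 of the 4 fits.

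**Figure D1:**
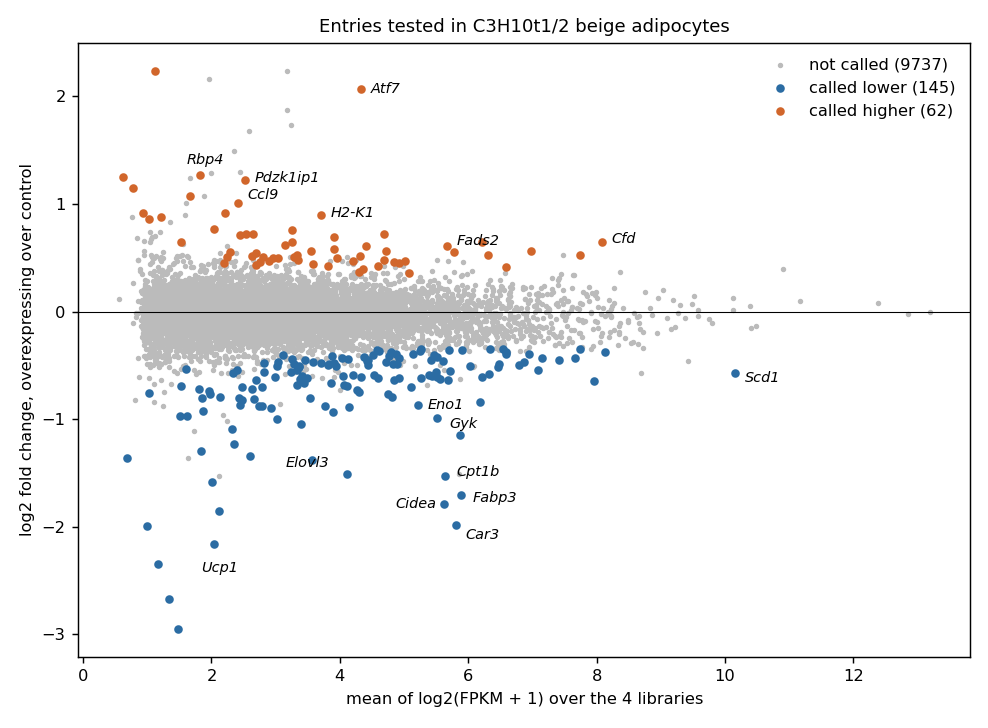
Each point is 1 of the 9944 entries, with the mean of log2(FPKM + 1) over the 4 libraries on the x axis and the log2 fold change (overexpressing over control) on the y axis. The 145 called falls (blue) reach further from 0 than the 62 called rises (orange), apart from Atf7 itself at 2.07 and an entry listed at 0 in both controls.

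The thermogenic list held the genes best known from brown and beige fat. Of its 39 members, 22 passed the filter, 11 fell, 0 rose and 11 were not called, and the fold change of all 22 lay below 0. The median log2 fold change was -0.61, against -0.020 for all entries, and it stayed between -0.66 and -0.21 over the 14 alternatives tried. Of the 11 calls, 4 were kept without overexpressing library 1 and 4 without overexpressing library 2. In bulk RNA, fewer beige cells and less of each transcript per cell cannot be told apart.

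Of the called members, Ucp1, Cidea, Cpt1b, Elovl3 and Otop1 had the largest falls. Ucp1, the uncoupling protein itself, stood at 8.71 and 6.82 FPKM in the controls and at 1.08 and 0.820 FPKM with overexpression. Every overexpressing value was below every control value (log2 fold change -2.16 ± 0.13, BH-adjusted p = 0.000927). Cidea, which coats lipid droplets in thermogenic fat, went from 96.4 and 84.7 to 24.8 and 26 FPKM (-1.79 ± 0.08, BH-adjusted p = 0.000202). Cpt1b, the muscle and brown fat form of the enzyme that brings long-chain fatty acids into mitochondria, went from 90.9 and 76.7 to 28 and 28.4 FPKM (-1.53 ± 0.09, BH-adjusted p = 0.000862). Elovl3, a fatty acid elongase of brown fat, went from 27.4 and 29 to 10.4 and 8.19 FPKM (-1.51 ± 0.11, BH-adjusted p = 0.00214). In each of these genes the replicates lay close together and the groups were well apart. Otop1, a proton channel, fell from 9.55 and 7.81 to 2.41 and 3.24 FPKM (-1.34 ± 0.13, BH-adjusted p = 0.00801). Gyk, glycerol kinase, which lets fat cells reuse glycerol, fell from 59.4 and 67.9 to 32.4 and 30.8 FPKM (-0.99 ± 0.08, BH-adjusted p = 0.00431).

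Smaller falls reached a channel, a mitochondrial protein and regulators of oxidative genes. Kcnk3, a potassium channel, fell from 19 and 22.8 to 12.3 and 12.9 FPKM (-0.69 ± 0.09, BH-adjusted p = 0.021), and Letmd1, a mitochondrial protein of brown fat, from 28.8 and 28.9 to 19 and 17.9 FPKM (-0.62 ± 0.07, BH-adjusted p = 0.00917). Ppara, the nuclear receptor that turns on fatty acid oxidation genes, fell from 23.7 and 23.9 to 15.9 and 14.7 FPKM (-0.61 ± 0.07, BH-adjusted p = 0.0109). Esrra, an orphan receptor that drives mitochondrial genes, fell from 21.8 and 21.3 to 13.5 and 14.5 FPKM (-0.59 ± 0.07, BH-adjusted p = 0.0115). The coactivator Ppargc1b was not called, at 14 and 13.4 against 11.8 and 11.3 FPKM (-0.23 ± 0.07, BH-adjusted p = 0.151). Ppargc1a and Prdm16, a coactivator and a transcription factor that set brown fat identity, did not pass the filter: Ppargc1a lay at 0.167 to 0.303 FPKM and Prdm16 at 0.460 to 0.768 FPKM in the 4 libraries. In both, the overexpressing values were the higher ones, and neither was tested. Dio2, the enzyme that activates thyroid hormone, was at or near 0 in every library.

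The called members of the list also held Fgf21 and Nrg4, whose products are secreted. Fgf21, a hormone released by liver and brown fat, went from 2.42 and 3.60 to 1.15 and 0.907 FPKM (-0.97 ± 0.16, BH-adjusted p = 0.0347). Nrg4, a neuregulin secreted by brown fat, went from 5.13 and 4.17 to 1.27 and 1.28 FPKM (-1.30 ± 0.11, BH-adjusted p = 0.00463). Both were low in all libraries, and in both the groups were separate. In the list of adipokines, which holds them too, 3 of 15 tested members fell, 2 rose and 10 were not called (median -0.10).

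The 11 thermogenic members that were not called had a wider spread or a smaller change. Cox7a1, a respiratory subunit of heart and brown fat, stood at 117 and 79 FPKM in the controls and at 22.6 and 48.6 FPKM with overexpression (-1.51 ± 0.33, BH-adjusted p = 0.0776). Its fold change equalled that of Elovl3, with a much wider spread in both groups. Cox8b, a subunit of the same kind and the most abundant member, stood at 821 and 792 against 667 and 512 FPKM (-0.46 ± 0.12, BH-adjusted p = 0.116). Slc36a2, Acot2 and Tbx1 had the smallest fold changes of the list, at -0.10, -0.07 and -0.07. The groups did not overlap in 19 of the 22 tested members, all 19 lower with overexpression. Over all 9944 entries tested they did not overlap in 49.1%, with 2868 entries lower and 2016 higher.

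Because ATF7 is known to bind the cAMP response element, the stretch from 250 bases before to 50 bases after the annotated start was searched on both strands in the 7551 tested entries with a RefSeq promoter (GRCm38.p6), of which 150 were called. The full element TGACGTCA stood in 2.22% of the promoters of genes that rose, in 0.952% of those that fell and in 3.56% of all tested. Its core TGACG, which the full element contains, stood in 22.2%, 24.8% and 34.8%. The site TGATGCAA, known for C/EBP paired with an ATF, stood in 0%, 1.9% and 0.516%, and the AP-1 site TGANTCA in 4.44%, 6.67% and 4.45%. A match is a description of letters, and no test was made.

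Of the called genes, 36 had a promoter with TGACG (10 rose and 26 fell), Fabp3, Ppara, H2-K1 and H2-D1 among them, and 9 one with the AP-1 site. The promoters below are 5 of the called ones: Ucp1, which holds TGACG and is the best known of the genes that fell, Fgf21 and Esrra, the 2 called genes with TGATGCAA, and Mcam and Meg3, the 2 called genes with the full element. Each is the 250 bases before the start, 5′ to 3′, with matches in capitals. Ucp1 lies at chr8:83290098-83290347, plus strand, Fgf21 at chr7:45615491-45615740, minus strand, Esrra at chr19:6921809-6922058, minus strand, Mcam at chr9:44134408-44134657, plus strand, and Meg3 at chr12:109540746-109540995, plus strand.
Ucp1 promoter: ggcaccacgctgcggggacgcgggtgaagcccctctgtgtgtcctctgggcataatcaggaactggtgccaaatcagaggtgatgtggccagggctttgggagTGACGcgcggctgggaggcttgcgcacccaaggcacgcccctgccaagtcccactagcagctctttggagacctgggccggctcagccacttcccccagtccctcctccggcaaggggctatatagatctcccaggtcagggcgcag
Fgf21 promoter: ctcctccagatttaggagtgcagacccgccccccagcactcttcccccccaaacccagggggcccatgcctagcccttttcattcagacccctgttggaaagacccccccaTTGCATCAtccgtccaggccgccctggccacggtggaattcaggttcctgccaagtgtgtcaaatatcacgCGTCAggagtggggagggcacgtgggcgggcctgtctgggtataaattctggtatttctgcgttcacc
Esrra promoter: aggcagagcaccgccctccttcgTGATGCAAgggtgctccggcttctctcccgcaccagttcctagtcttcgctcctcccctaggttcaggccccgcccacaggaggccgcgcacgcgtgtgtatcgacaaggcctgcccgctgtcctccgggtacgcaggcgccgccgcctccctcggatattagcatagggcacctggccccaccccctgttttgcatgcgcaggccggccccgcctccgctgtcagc
Mcam promoter: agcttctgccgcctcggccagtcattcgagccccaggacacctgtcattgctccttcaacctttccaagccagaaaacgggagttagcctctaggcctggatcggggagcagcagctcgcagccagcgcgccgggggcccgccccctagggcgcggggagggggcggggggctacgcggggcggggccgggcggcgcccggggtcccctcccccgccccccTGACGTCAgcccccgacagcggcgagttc
Meg3 promoter: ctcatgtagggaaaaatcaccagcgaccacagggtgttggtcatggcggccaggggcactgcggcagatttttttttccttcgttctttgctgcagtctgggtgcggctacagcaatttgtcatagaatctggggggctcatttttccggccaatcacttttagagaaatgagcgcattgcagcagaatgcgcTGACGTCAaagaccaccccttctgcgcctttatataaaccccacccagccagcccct
In Ucp1 the capitals mark the core TGACG, whose leftmost base is 147 bases before the start. In Fgf21 they mark TGATGCAA and TGACG, both read from the other strand, with leftmost bases 139 and 68 bases before the start. In Esrra they mark TGATGCAA 227 bases before the start. In Mcam and Meg3 they mark the full element TGACGTCA, 29 and 57 bases before the start. Mcam, a cell adhesion molecule of vessel walls and stromal cells, rose from 18 and 20.3 to 32.7 and 31.6 FPKM (0.72 ± 0.08, BH-adjusted p = 0.00917). Meg3, an imprinted long noncoding RNA, fell from 11 and 9.87 to 6.45 and 7.09 FPKM (-0.56 ± 0.09, BH-adjusted p = 0.0287). The 2 genes with the full element thus moved in opposite directions.

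Mitochondrial fatty acid oxidation, the pathway that fuels uncoupling, fell in part. Of 23 members, all tested, 7 fell and 0 rose (median log2 fold change -0.25, between -0.30 and -0.21 over the alternatives). Beside Cpt1b, Acaa2, the last enzyme of the cycle, fell from 320 and 302 to 192 and 203 FPKM (-0.65 ± 0.07, BH-adjusted p = 0.00819). Hadhb, a subunit of the trifunctional protein, fell from 159 and 168 to 114 and 109 FPKM (-0.54 ± 0.07, BH-adjusted p = 0.0131), and its partner subunit Hadha from 238 and 244 to 192 and 185 FPKM (-0.35 ± 0.06, BH-adjusted p = 0.0443). The remaining falls were Hadh (-0.47) and Crat (-0.38), which handle hydroxyacyl and short acyl groups, and Etfa (-0.45), which passes electrons to the respiratory chain. Cpt1a, the liver form of the transporter, was not called, at 17.1 and 17.6 against 19.5 and 18.3 FPKM (0.12 ± 0.07, BH-adjusted p = 0.426). The 2 forms of CPT1 were thus on different sides of 0. The count of 7 was 3 without either control library, 1 without either overexpressing library and 1 with no filter on low values.

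Targets of PPARγ gave a split picture. Of 41 tested members of 42, 11 fell and 0 rose (median -0.13), and the list shares Cidea, Cpt1b, Gyk, Fgf21, Acaa2, Hadha and Hadhb with the groups above. Fabp3, a fatty acid binding protein of heart and brown fat, fell from 99.9 and 113 to 31.8 and 31.7 FPKM (-1.71 ± 0.08, BH-adjusted p = 0.000202). Pdk4, a kinase that shuts off pyruvate dehydrogenase, fell from 76.8 and 77.1 to 54.3 and 52.9 FPKM (-0.51 ± 0.06, BH-adjusted p = 0.0115). Fabp4, the fatty acid binding protein of all adipocytes and the most abundant target, did not differ beyond its spread, at 9325 and 9407 against 9779 and 8926 FPKM (-0.00 ± 0.09, BH-adjusted p = 0.989). Pparg itself stood at 56.5 and 52.5 against 54.0 and 52.8 FPKM (-0.03, BH-adjusted p = 0.876). The count of 11 was 3 without either overexpressing library, 7 without control 2 and 4 with no filter on low values.

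The tricarboxylic acid cycle and the respiratory chain had few calls and small shifts. In the cycle, 21 of 22 members lay below 0 and 1 fell, Pdhx, a pyruvate dehydrogenase component, from 26.4 and 27.2 to 20.6 and 20.4 FPKM (-0.37 ± 0.06, BH-adjusted p = 0.0428). In the respiratory chain, 69 of 76 tested subunits lay below 0 and 3 fell: Cox5a of complex IV (-0.43) and Ndufa5 (-0.45) and Ndufa1 (-0.39) of complex I. The medians were -0.22 and -0.18, against -0.020 for all entries, and both stayed below 0 in all 14 alternatives. The calls did not: 0 of the 3 respiratory calls were kept whichever library was left out, the call of Pdhx was lost likewise, and the respiratory count was 0 under every rescaling and with the small RNA genes kept.

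The general genes of adipocytes held no such common direction. Of 31 tested adipocyte core genes, 6 fell, 2 rose and 23 were not called (median -0.07, which was 0.00 after quantile normalization). Adipoq, the hormone adiponectin, stood at 1041 and 1081 FPKM in the controls and at 1195 and 1133 FPKM with overexpression (0.13 ± 0.07, BH-adjusted p = 0.384). Plin1, the main coat protein of lipid droplets, stood at 272 and 293 against 319 and 290 FPKM (0.11 ± 0.08, BH-adjusted p = 0.533). The summed FPKM of the list was 17485 and 17984 in the controls and 18392 and 17011 with overexpression, so the groups overlapped. Of 20 tested adipogenic transcription factors limma called 0, and 3 had an unadjusted p under 0.05, Klf15 (0.34), Rxra (0.20) and Nr1h3 (0.18). Cebpa stood at 30.8 and 30.5 against 34.4 and 32.6 FPKM (0.12 ± 0.06, BH-adjusted p = 0.38).

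Single adipocyte genes did change. Car3, a carbonic anhydrase abundant in fat, fell from 106 and 115 to 26.4 and 28.1 FPKM (-1.98 ± 0.07, BH-adjusted p = 0.000141). Cfd, the secreted complement protease adipsin, rose from 230 and 203 to 355 and 325 FPKM (0.65 ± 0.08, BH-adjusted p = 0.0171). Rbp4, the retinol carrier, rose from 1.81 and 0.839 to 3.65 and 5.45 FPKM (1.27 ± 0.23, BH-adjusted p = 0.0452). Rbp4 was low in these libraries, and its call was kept in 3 of the 13 alternatives that tested it. It was lost with a pseudocount of 0.1 FPKM and under every rescaling. Car3 had the smallest relative spread of these and Rbp4 the widest. The list of white-selective genes had 1 fall and 1 rise among 9 tested members, of which 6 lay above 0 (median 0.22). Its fall was Agt, angiotensinogen, from 70.3 and 106 to 42.1 and 34.9 FPKM (-1.15 ± 0.18, BH-adjusted p = 0.0333). Nrip1, a corepressor of brown fat genes in the same list, rose from 12 and 12.1 to 19 and 16.1 FPKM (0.50 ± 0.09, BH-adjusted p = 0.0452). The call of Nrip1 was kept in 5 of the 14 alternatives.

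While 1.46% of all entries were called lower, genes of triglyceride synthesis fell in 4 of 16 tested members and rose in 0 (median -0.17). Besides Gyk these were Pck1, which makes glycerol backbones, from 111 and 99.6 to 71.6 and 74.1 FPKM (-0.52), Dgat2, the last enzyme of the path, from 162 and 166 to 123 and 120 FPKM (-0.43), and Gpam, the opening enzyme (-0.40). Their adjusted p-values lay between 0.00431 and 0.0349, and 0 of the 4 stayed called without either overexpressing library. Fatty acid synthesis and desaturation moved both ways, with 2 rises and 1 fall among 17. Scd1, which puts a double bond into saturated fatty acids, fell from 1396 and 1393 to 905 and 978 FPKM (-0.57 ± 0.07, BH-adjusted p = 0.0162). Fads2, a desaturase of polyunsaturated fatty acids, rose from 39.5 and 40.7 to 64 and 59.8 FPKM (0.61 ± 0.07, BH-adjusted p = 0.00919), and Fads1, its partner, from 44.2 and 44.2 to 67.2 and 63.4 FPKM (0.55 ± 0.06, BH-adjusted p = 0.0109). Scd1 and the Fads pair were therefore on opposite sides. In cholesterol synthesis 21 of 24 tested members lay above 0, and the median was 0.15, against -0.020 for all entries. But 1 rose, the sterol carrier Stard4 (0.56 ± 0.08, BH-adjusted p = 0.0211).

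**Figure D2:**
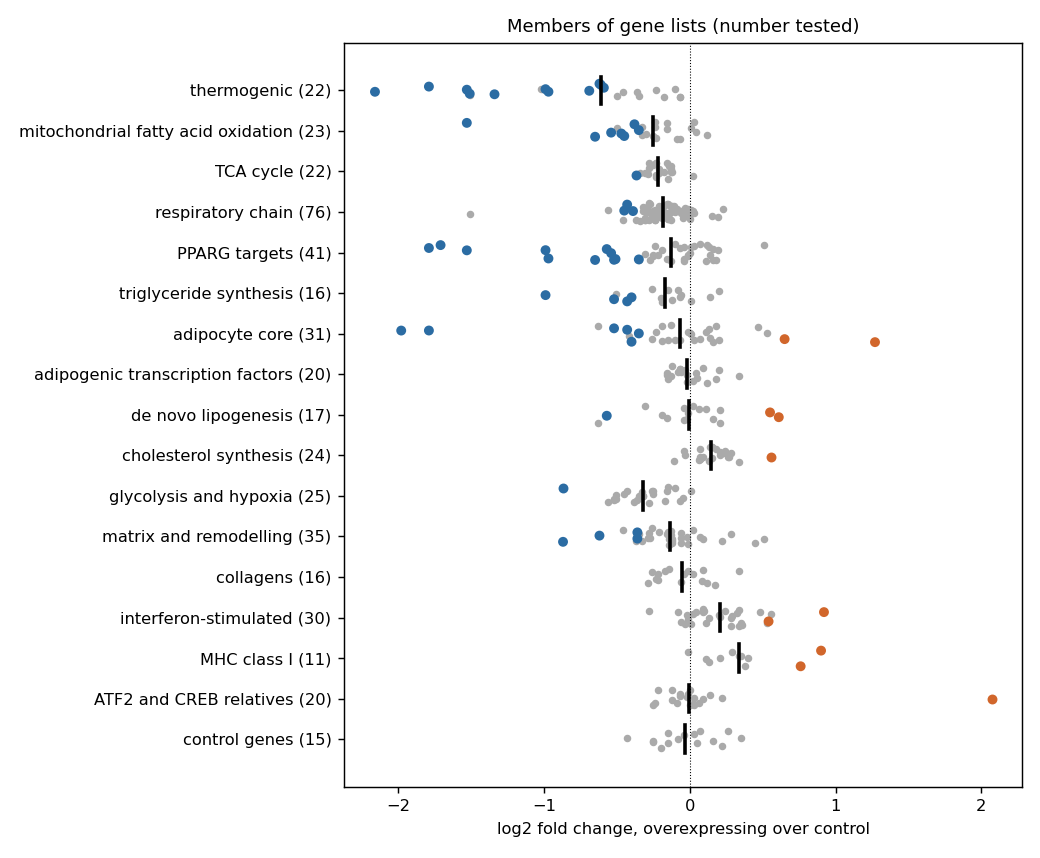
Log2 fold change (overexpressing over control) of each tested member of 17 gene lists, with called rises in orange, called falls in blue, members not called in grey and the list median as a black bar. The thermogenic median lies at -0.61, the fatty acid oxidation median at -0.25 and the MHC class I median at 0.34, with 0 as the dotted line.

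Among the rises were genes of antigen presentation and the interferon response. In the MHC class I list, 2 of 11 tested members rose and 10 lay above 0 (median 0.34, against -0.020 for all entries). H2-K1, a class I heavy chain, rose from 8.39 and 8.59 to 17.7 and 15.9 FPKM (0.90 ± 0.08, BH-adjusted p = 0.00505), and H2-D1, another heavy chain, from 6.33 and 6.26 to 11.2 and 11.6 FPKM (0.76 ± 0.07, BH-adjusted p = 0.00594). The sequences of these chains are near-identical in parts, so the split of reads between them is uncertain. B2m, the light chain, was not called, at 143 and 165 against 204 and 190 FPKM (0.35 ± 0.09, BH-adjusted p = 0.0979). Neither heavy chain was called without overexpressing library 1, and H2-K1 alone was called without overexpressing library 2. While 0.623% of all entries were called higher, of 30 tested interferon-stimulated genes 2 rose and 0 fell (median 0.21). Ifit1, an antiviral RNA-binding protein, rose from 0.429 and 0.355 to 1.37 and 1.94 FPKM (0.92 ± 0.14, BH-adjusted p = 0.0266). Gbp2, a GTPase, rose from 4.22 and 4.46 to 6.67 and 6.90 FPKM (0.54 ± 0.08, BH-adjusted p = 0.0211). Both lost their call without either overexpressing library, and Irf7, a master regulator of the response, was not called (0.56 ± 0.12, BH-adjusted p = 0.0655).

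Other immune-related rises stood at low levels. Ccl9, a chemokine, rose from 2.36 and 3.18 to 7.38 and 5.81 FPKM (1.01 ± 0.14, BH-adjusted p = 0.0211). Tlr8, a receptor for single-stranded RNA, rose from 0.597 and 0.816 to 2.02 and 2.26 FPKM (0.88 ± 0.12, BH-adjusted p = 0.0185), and Ly6e, a membrane protein induced by interferon, from 2.27 and 2.07 to 4.33 and 4.44 FPKM (0.77 ± 0.09, BH-adjusted p = 0.0108). Markers of macrophages did not come up with them. Of 18 such markers 1 passed the filter, Cd68 at 0.868 to 1.28 FPKM, 5 were at 0 in all 4 libraries, C1qa and Itgam among them, and the summed FPKM was 2.33 and 1.85 in the controls and 2.44 and 2.33 with overexpression.

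The largest remaining rises were of mixed function. Pdzk1ip1, a small membrane protein of epithelia, rose from 2.79 and 2.78 to 7.50 and 8.11 FPKM (1.22 ± 0.08, BH-adjusted p = 0.00156). Agmo, an enzyme that cleaves ether lipids, rose from 2.10 and 2.69 to 5.38 and 5.41 FPKM (0.92 ± 0.11, BH-adjusted p = 0.0109). Atp2b4, a calcium pump of the plasma membrane, rose from 3.52 and 3.53 to 6.31 and 6.61 FPKM (0.72 ± 0.08, BH-adjusted p = 0.00917). All 3 had close replicates, and separate groups were a condition of the naming rule. Prlr, the prolactin receptor, rose from 0.474 and 0.551 to 1.72 and 1.77 FPKM (0.86 ± 0.11, BH-adjusted p = 0.0159). Cystm1 (1.07), Mpp7 (0.72) and Mrpl23 (0.71) complete the 15 largest rises chosen by the naming rule, all from levels under 5 FPKM in the controls.

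**Figure D3:**
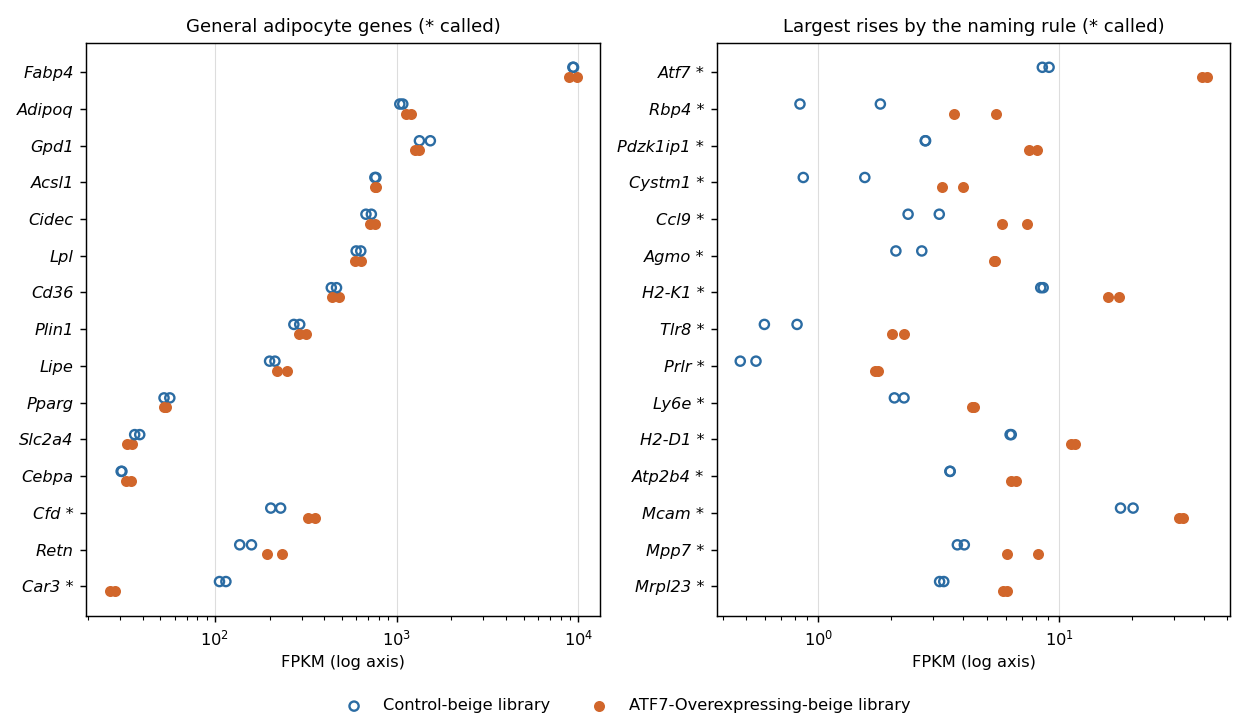
FPKM (log axis) in each library for 15 general adipocyte genes (left) and for the 15 largest rises (right), controls as open circles, overexpressing libraries as filled circles and called genes with an asterisk. On the left Fabp4, Adipoq and Pparg differ little between groups while Car3 falls from 106 and 115 to 26.4 and 28.1 FPKM. On the right all 15 genes have separate groups, which the naming rule required.

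The largest falls outside the groups above were again of mixed function. Rbp7, a retinol-binding protein of fat, fell from 5.97 and 8.72 to 1.52 and 1.08 FPKM (-1.85 ± 0.17, BH-adjusted p = 0.00594). S100g, a calcium-binding protein, fell from 4.50 and 7.74 to 1.34 and 1.31 FPKM (-1.58 ± 0.20, BH-adjusted p = 0.0159). Itih4, a serum protein that binds hyaluronan-associated complexes, fell from 16.6 and 19.7 to 6.91 and 5.77 FPKM (-1.38 ± 0.11, BH-adjusted p = 0.00393). The controls of Rbp7 and S100g differed from each other more than the overexpressing libraries did. Gys2, the liver form of glycogen synthase, fell from 15.7 and 12.6 to 5.95 and 6.59 FPKM (-1.05 ± 0.11, BH-adjusted p = 0.00819). Vldlr, a receptor for triglyceride-rich lipoproteins, fell from 10.1 and 10.7 to 4.82 and 4.63 FPKM (-1.0 ± 0.07, BH-adjusted p = 0.00291). Krt36, a keratin, and Oplah, an enzyme of glutathione turnover, fell by 1.23 and 1.09 on the log2 scale.

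Glycolytic and hypoxia-related genes lay below 0 in 24 of 25 tested members (median -0.32, against -0.020 for all entries), and 1 fell. Eno1, the enolase of glycolysis, fell from 51.1 and 47.7 to 26.4 and 26.6 FPKM (-0.87 ± 0.07, BH-adjusted p = 0.00293). An overlapping entry, Eno1b, was listed at 21.2 and 0 FPKM in the controls and at 11.4 and 22.9 FPKM with overexpression, so the split of reads between them is uncertain and with it the fall of Eno1. In several other members control 1 lay well above control 2: Pgk1, a kinase of the same path, read 61.9 and 41.3 FPKM in the controls and 31.1 and 44.5 FPKM with overexpression (-0.43 ± 0.21, BH-adjusted p = 0.36). The median was -0.16 without control 1 and -0.51 without control 2. While 1.46% of all entries were called lower, genes of the extracellular matrix fell in 4 of 35 tested members and rose in 0 (median -0.13). The 2 with the largest falls were thrombospondins. Thbs2 fell from 5.74 and 7.0 to 3.45 and 2.65 FPKM (-0.87 ± 0.13, BH-adjusted p = 0.0249). Thbs1 fell from 41.6 and 51.9 to 30.9 and 29 FPKM (-0.62 ± 0.11, BH-adjusted p = 0.0429). The call of Thbs1 was kept in 4 of the 14 alternatives. Of 16 tested collagens limma called 0, with 7 at an unadjusted p under 0.05 (median -0.05).

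Regulators linked to ATF7 were not called. Of 16 tested genes of H3K9 methylation, the histone mark laid down by partners of ATF7, 0 were called by limma, 2 had an unadjusted p under 0.05 and the median was 0.01. The integrated stress response gave 3 falls among 31 tested members, Vldlr, Fgf21 and Ddit3, whose product CHOP restrains adipogenesis. Ddit3 fell from 24.7 and 23.2 to 12.9 and 15.2 FPKM (-0.73 ± 0.09, BH-adjusted p = 0.015), while its upstream factor Atf4 stood at 49.3 and 47 against 51 and 51.6 FPKM (0.09 ± 0.06, BH-adjusted p = 0.518). Id3, a target of BMP signalling, fell from 54.4 and 53.6 to 37.3 and 35.1 FPKM (-0.56 ± 0.06, BH-adjusted p = 0.0109). In adrenergic and cAMP signalling, the path that starts thermogenesis, 2 of 17 tested members fell and 15 were not called (median -0.11). The falls were the kinase subunits Prkar2b (-0.39), whose call was kept in 3 of the 14 alternatives, and Prkaca (-0.35), kept in 2. Adrb3, the adrenergic receptor of fat, was not called, at 11.4 and 14.5 against 18.5 and 17.9 FPKM (0.47 ± 0.11, BH-adjusted p = 0.0884).

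Markers of other fates of the line were few. Of 23 preadipocyte and stromal genes 16 were tested and 1 fell, Prrx1, from 56.2 and 55.5 to 39.8 and 41.0 FPKM (-0.46 ± 0.06, BH-adjusted p = 0.0188). The osteogenic list had 4 tested members with 1 fall, Phex (-0.48), whose call was kept in 3 of the 14 alternatives. The chondrogenic and skeletal muscle lists had 3 tested members each with 0 calls by limma (1 and 3 at an unadjusted p under 0.05). Of 20 tested cell cycle genes limma called 0 (2 at an unadjusted p under 0.05). Their part in the results above was not tested.

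The C3H10t1/2 response was set beside that of the primary cultures, which share no library with it. The question was whether the genes that moved with added ATF7 differed between cultures labelled as lacking it and WT. Atf7 stood at 7.80 and 7.83 FPKM in WT-beige and at 7.26 and 7.94 FPKM in ATF7KO-labelled beige libraries, so it was not lower there, and FPKM over the whole gene leaves unseen which exons were read. Every direction given for them rests on the label. All 11 called thermogenic genes lay above 0 in ATF7KO-labelled beige against WT-beige, by 0.08 (Kcnk3) to 0.94 (Ucp1), and 62.8% of all 9670 entries in both fits lay above 0. Over those entries 0.062% were called higher there and 0.103% lower. Of the 11, 1 was called higher there, Cidea, which stood at 56.1 and 52.3 FPKM in WT-beige and at 115 and 89.5 FPKM in the ATF7KO-labelled libraries (0.89, adjusted p = 0.0433). Ucp1 stood at 19.1 and 17.2 FPKM against 51.6 and 24.5 FPKM (0.94), with groups apart and a wide spread.

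The difference between the overexpression and the ATF7KO-labelled effects was tested in 1 model over the 8 beige libraries. It passed in 134 of 10770 entries, which is 1.24%. It passed in 62 of the 145 entries that fell on overexpression. It passed in 9 of the 11 called thermogenic genes and in 3 of the 11 not called, each time with the overexpression effect the lower one. The 145 and the 11 called genes were chosen for their fall, which is a term of this difference. Nothing is read from their counts. The difference was -3.10 for Ucp1 and -2.68 for Cidea. Both are among these 11, so nothing is read from their difference either. In the ATF7KO-labelled cultures alone, Ucp1 was not called (limma adjusted p = 0.299). Car3 went another way: it fell in C3H10t1/2 and lay at -0.98 in the ATF7KO-labelled cultures, where it was not called (limma adjusted p = 0.0979). Its difference did not pass (-1.0, adjusted p = 0.063), which does not show that the 2 effects are alike. Agt likewise lay below 0 in both settings (-1.15 and -0.74), and it was not called in the ATF7KO-labelled cultures (limma adjusted p = 0.235). Of the 61 genes that rose in C3H10t1/2 and were in both fits, 21 lay above 0 in ATF7KO-labelled beige and 40 below. Of the 136 that fell, 97 lay above 0 and 39 below, with a median of 0.11 against 0.047 for all entries. Spearman's rho between the fold changes was -0.05 across the 9670 entries, which are not independent, so no relation across all genes was seen.

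**Figure D4:**
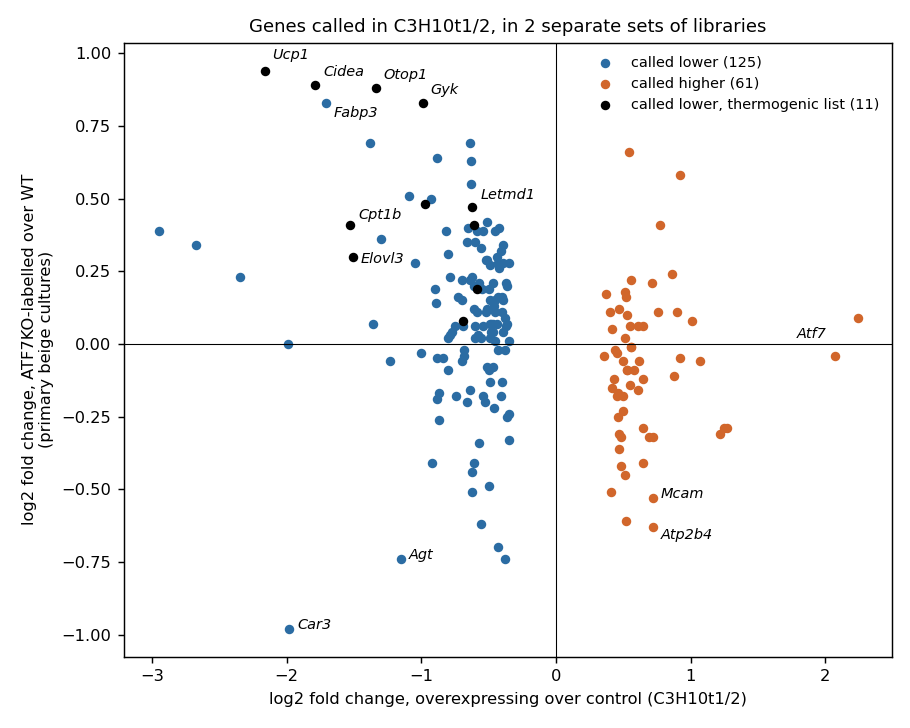
Each point is a gene called in C3H10t1/2 and tested in the primary cultures, with its log2 fold change on overexpression on the x axis and its log2 fold change in ATF7KO-labelled over WT primary beige cultures on the y axis. The 11 called thermogenic genes (black) lie left of and above 0, up to 0.94 for Ucp1, while Car3 lies at -0.98.

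The same genes were also read in WT-beige against WT-white cultures, a comparison that shares the WT-beige libraries with the ATF7KO-labelled one. Of the 136 genes that fell in C3H10t1/2, 85 were called higher and 29 lower in beige than in white, while 22.5% of all entries in both fits were called higher and 28.6% lower. All 11 called thermogenic genes were called higher in beige. Of the 61 that rose, 10 were called higher and 27 lower. Fold changes side by side show the range: Elovl3 lay at -1.51 on overexpression, 0.30 in ATF7KO-labelled beige and 5.89 in beige over white, while Cfd lay at 0.65, -0.41 and -3.75. Igfbp5, an IGF-binding protein, fell in C3H10t1/2 (-0.90) and was lower in beige than in white too (-2.16).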

How the data were processed

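Total RNA was depleted of ribosomal RNA and sequenced from both fragment ends as directional libraries, per the labels' protocols. The authors deposited 1 FPKM value per gene and locus in each library, per the file headers. Per the submitters' processing notes, the build was GRCm38 (mm10). No label or header names the aligner, quantifier, annotation or filters, so these stay unknown. Deposited starts count from 0, so 1 was added to each.

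Groups came from the sample titles. Libraries were joined by symbol and locus, and the 1371 entries with small RNA symbols, microRNA host genes among them, were left out. The comparison was fitted on its 4 libraries with limma 3.58.1 (eBayes with trend, 2 residual degrees of freedom, two-sided) in R 4.3.3 on log2(FPKM + 1), with Benjamini-Hochberg adjustment over all entries and a threshold of 0.05. Counts of genes are counts of entries. The fit was checked on simulated data. An exact 0 may be a failed estimate, so entries listed at 0 in a whole group get no fold change in the text. The figures draw them at their fitted difference.

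There were 45 gene lists with 1109 entries, 1108 of them matched, 8 by a synonym or another name. The members, lists and naming rule were chosen with earlier results of these data known, and lists overlap. Named were the 15 largest rises and 15 largest falls among calls whose mean log2 value reached 1 and whose groups did not overlap. Predicted genes, pseudogenes and entries listed at 0 in a whole group were left out of these. Also named were the list members with the lowest p, up to 6 for each list, and fixed genes. Exceptions chosen after their values were seen included Meg3, Atf4, Cpt1a and the genes of the closing observations. They also included thermogenic members beyond the 6 with the lowest p, such as Kcnk3, Letmd1, Slc36a2, Acot2 and Tbx1. Alternatives were other pseudocounts, filters, scalings and fits, a replicate block and leaving out each library.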

Additional observations from a re-analysis of the deposited data

Results flagged for a closer look

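Small RNA genes were left out of the main measurement by symbol. The rule also took out the microRNA host genes Mir99ahg, Mir143hg and Mir22hg, which are not small RNA genes. Of the 37 entries left out by it that reached the filter, 4 were called when kept in the fit, 1 higher and 3 lower. The host genes were not among the calls. Snord104, a guide RNA for ribosomal RNA methylation, stood out: it was listed at 0 in both controls and at 2220 and 3332 FPKM in the overexpressing libraries. The fitted difference of 11.41 on the log2 scale depends on the pseudocount and is no fold change. Snora5c was listed at 352 and 295 FPKM in the controls and at 0 in both overexpressing libraries, and Snora16a at 23.4 and 18.5 against 0 and 0. Snord22 stood at 1328 and 1431 against 683 and 545 FPKM (log2 fold change -1.17 ± 0.12, limma adjusted p = 0.0144). A short transcript gets a large FPKM from few fragments.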

How the results depend on the processing

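Over 14 alternatives, 0 of the 89 named called genes changed sign, and 7 kept their call in all 14: Atf7, Car3, Cidea, Cpt1b, Elovl3, Fabp3 and Pdzk1ip1. Nme7, Pdss1 and Ucp1 kept theirs in the 13 that tested them; they did not reach 1 FPKM in all 4 libraries. The count of calls (207, of which 62 higher and 145 lower) was 27 (6 and 21) with no filter on low values, where 15744 entries were tested, and 115 (31 and 84) without a variance trend. Leaving out each library gave 12 to 164 calls (2 to 57 higher, 10 to 107 lower). With 3 libraries, 1 group has a single library, which is assumed to vary like the other group. The remaining alternatives, apart from the replicate block given next, gave 149 to 280. The control and overexpressing deviations of the same replicate number correlated at -0.074, so the numbers were not taken as pairs, and with the replicate block 132 entries were called (35 higher, 97 lower). The difference from the ATF7KO-labelled effect was called in 112 to 180 entries, against 134, with 116 under the replicate block. Of the named genes not called, Fabp4 read 0.00 after quantile normalization, 0.02 after median centring and 0.03 after rescaling, and -0.07 to 0.06 when libraries were left out. Pparg read 0.02 after quantile normalization and 0.01 after rescaling, with -0.08 to 0.02 when libraries were left out, and Tbx1 read -0.17 to 0.03. The cause of these changes was not tested. With 2 residual degrees of freedom, small changes pass the threshold only where the moderated spread is small, and FPKM give no counting error. The smallest change called was 0.35 on the log2 scale.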

Other observations

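The genes named in these paragraphs were chosen after their values were seen, and they stand for no list. Perm1, a regulator of mitochondrial genes in muscle, fell from 1.56 and 1.73 to 0.564 and 0.562 FPKM (log2 fold change -0.76 ± 0.11, limma adjusted p = 0.0222). Adck3, which acts in coenzyme Q synthesis, fell from 35.1 and 33.2 to 20 and 19.3 FPKM (-0.77 ± 0.07, BH-adjusted p = 0.00505). Ehhadh, a peroxisomal enzyme of fatty acid oxidation, fell from 44.2 and 42.1 to 25.1 and 27.2 FPKM (-0.70 ± 0.07, BH-adjusted p = 0.00801). The peroxisomal transporters Abcd3 (-0.49) and Slc25a17 (-0.39) fell with it, and the call of Slc25a17 was kept in 3 of the 14 alternatives. Prdx5 (-0.58), Sod2 (-0.42) and Romo1 (-0.64), mitochondrial proteins of redox balance, fell too. Phospho1, a phosphatase expressed in brown fat, fell from 92.3 and 99.4 to 56.9 and 49.6 FPKM (-0.84 ± 0.08, BH-adjusted p = 0.00801).

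Mc5r, a melanocortin receptor, rose from 10.8 and 10.9 to 20.4 and 16.1 FPKM (0.69 ± 0.11, BH-adjusted p = 0.0329). Tshr, the thyrotropin receptor, rose from 5.66 and 6.13 to 9.35 and 8.16 FPKM (0.50 ± 0.09, BH-adjusted p = 0.0456), and Hcar2, which restrains lipolysis, from 7.82 and 7.49 to 10.9 and 11.3 FPKM (0.48 ± 0.07, BH-adjusted p = 0.0254).

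Of the 207 calls, 7 were listed at 0 in a whole group, 5 of them with overexpression and 2 in the controls. Gt(ROSA)26Sor, the noncoding gene at the Rosa26 locus, was listed at 5.19 and 8.61 FPKM in the controls and at 0 in both overexpressing libraries. Mrpl48, a mitochondrial ribosomal protein (5.72 and 5.04), Pdss1, which makes the side chain of coenzyme Q (4.15 and 4.03), and Nme7, a centrosomal protein (2.87 and 3.07), were likewise listed at 0 with overexpression. Morn2 was listed at 0 in both controls and at 5.10 and 2.63 FPKM with overexpression. Amd2 was listed at 1.46 and 1.69 against 0 and 0 while its near-identical copy Amd1 was called higher, at 0.314 and 0 against 1.74 and 1.36 FPKM, so both values are uncertain.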
